A study of Drosophila melanogaster with 70 samples.

Results

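The proteasome subunit genes of Drosophila melanogaster were followed in maps of chromatin domains from embryos. Members were the protein-coding genes of the dm6 annotation on 2L, 2R, 3L, 3R and X whose symbol starts with Prosalpha or Prosbeta, or with Rpn or Rpt and a digit. The rule found 48 genes among 13842 protein-coding genes on these arms, and it used no measured value. Of the 48, 32 were general subunits and 16 were paralogs whose symbol carries a T or an R after the digit.

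The proteasome is the protease that degrades proteins tagged with ubiquitin, and every cell needs it. Its core particle is a barrel of alpha and beta rings, in which a few beta subunits do the cutting, and its regulatory particle recognises, unfolds and feeds in the substrate. The regulatory particle has a base built on a ring of Rpt ATPases and a lid made of Rpn subunits. In Drosophila many of the T and R paralogs are known as forms of the testis, where they replace or join the general subunit during sperm development.

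The genes were placed on boundaries from in situ Hi-C, an assay that ligates and sequences DNA ends lying close together in the nucleus. A boundary is the point between neighbouring domains, that is, stretches of chromosome that contact themselves more than their surroundings. The study compared embryos whose mothers lacked much of their mof product with control embryos. MOF is the enzyme that acetylates lysine 16 of histone H4, and it serves in the dosage compensation of the male X.

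The stage 5 control list was taken to come from 3 libraries of blastoderm embryos in nuclear cycle 14, the progeny of mat-a-tubGal4/controlRNAi mothers. The stage 5 mof RNAi list was taken to come from 2 libraries of the same stage. Their strain label also names control RNAi mothers but gives the mof RNAi stock, so the group follows the sample titles. The stage 15 list is named by all 8 libraries of embryos 14 to 16 h after egg laying, in a Sxl-GFP background and sorted by GFP into males and females. These 8 were 2 for each combination of sex and RNAi, and which of them entered the list is not stated. In all groups the driver acts in the mother, the knockdown is maternal, and a library pools embryos with all their cell types. The descriptions of both stage 5 groups name a list that was identical byte for byte to the control list, and it was not used. The link of the mof RNAi list to its libraries rests on the stage and condition in the list's file name.

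On bins of 2.5 kb, 2591 boundaries were listed in stage 5 control, 2499 after mof RNAi and 2785 at stage 15. Read counts are not part of the lists, and the depth behind a boundary is unknown. Each condition has 1 list, so no difference between lists has a replicate check and none was tested. A gene is called at a boundary here when either of its annotated ends lay within 2.5 kb, the width of 1 bin, of the midpoint of a boundary. Distances are from the nearer gene end to the nearest midpoint, and differences smaller than a bin are below the resolution of the maps.

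In each of the 3 lists the share of general subunit genes at a boundary was above that of all genes, and the share of their paralogs was below it. In stage 5 control, 17 of 32 general subunits (53.1%, 95% Wilson interval 36.4% to 69.1%) were at a boundary, beside 31.5% of all protein-coding genes. After mof RNAi the count was 15 of 32 (46.9%, 30.9% to 63.6%), beside 29.5% of all genes. At stage 15 it was 16 of 32 (50%, 33.6% to 66.4%), beside 34.5% of all genes. The lower end of the interval lay above the share of all genes in both stage 5 lists and just below it at stage 15. The intervals cover counting error only and treat genes as independent. With a window of 1 kb the interval included the share of all genes in all 3 lists. The same held without the 7 general subunits in stretches where bins had been left out of a stage 5 map: 12 of 25 (48%, 30.0% to 66.5%) were then at a control boundary, beside 35.8% of all genes outside such stretches, and their median distance was 3.40 kb beside 4.83 kb.

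Of the 16 paralogs, 2 were at a boundary in stage 5 control (12.5%, 3.5% to 36.0%). The count was again 2 of 16 after mof RNAi (12.5%), and 1 of 16 at stage 15 (6.25%, 1.11% to 28.3%). The interval reached past the share of all genes in both stage 5 lists and ended below it at stage 15. The intervals of general subunits and paralogs did not overlap at stage 15, were less than a percentage point apart in stage 5 control, and overlapped after mof RNAi.

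Median distances were ordered in the same way. In stage 5 control the median was 2.05 kb for general subunits, 12.3 kb for paralogs and 6.17 kb for all protein-coding genes. After mof RNAi these medians were 3.42, 13.8 and 6.83 kb. At stage 15 they were 2.74, 19.6 and 5.36 kb. General subunits were thus nearer than the median gene and paralogs farther in every list.

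A wider window gave the same order in all 3 lists. Within 5 kb of a stage 5 control boundary lay 24 of 32 general subunits (75%) and 3 of 16 paralogs (18.8%), beside 45.1% of all genes. After mof RNAi 21 general subunits and 3 paralogs lay within 5 kb, beside 42.5% of all genes. At stage 15 these counts were 20 and 2, beside 48.4%. The member just inside the 2.5 kb limit in stage 5 control was Prosbeta6 at 2.08 kb, and the one just outside was Rpn11 at 3.40 kb. Within 1 more bin, from 2.5 to 5 kb, lay 7 general subunits (21.9%) and 1 paralog (6.25%), beside 1877 of all 13842 genes. A boundary moved by 1 bin could thus change the status of each of these members.

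**Figure D1:**
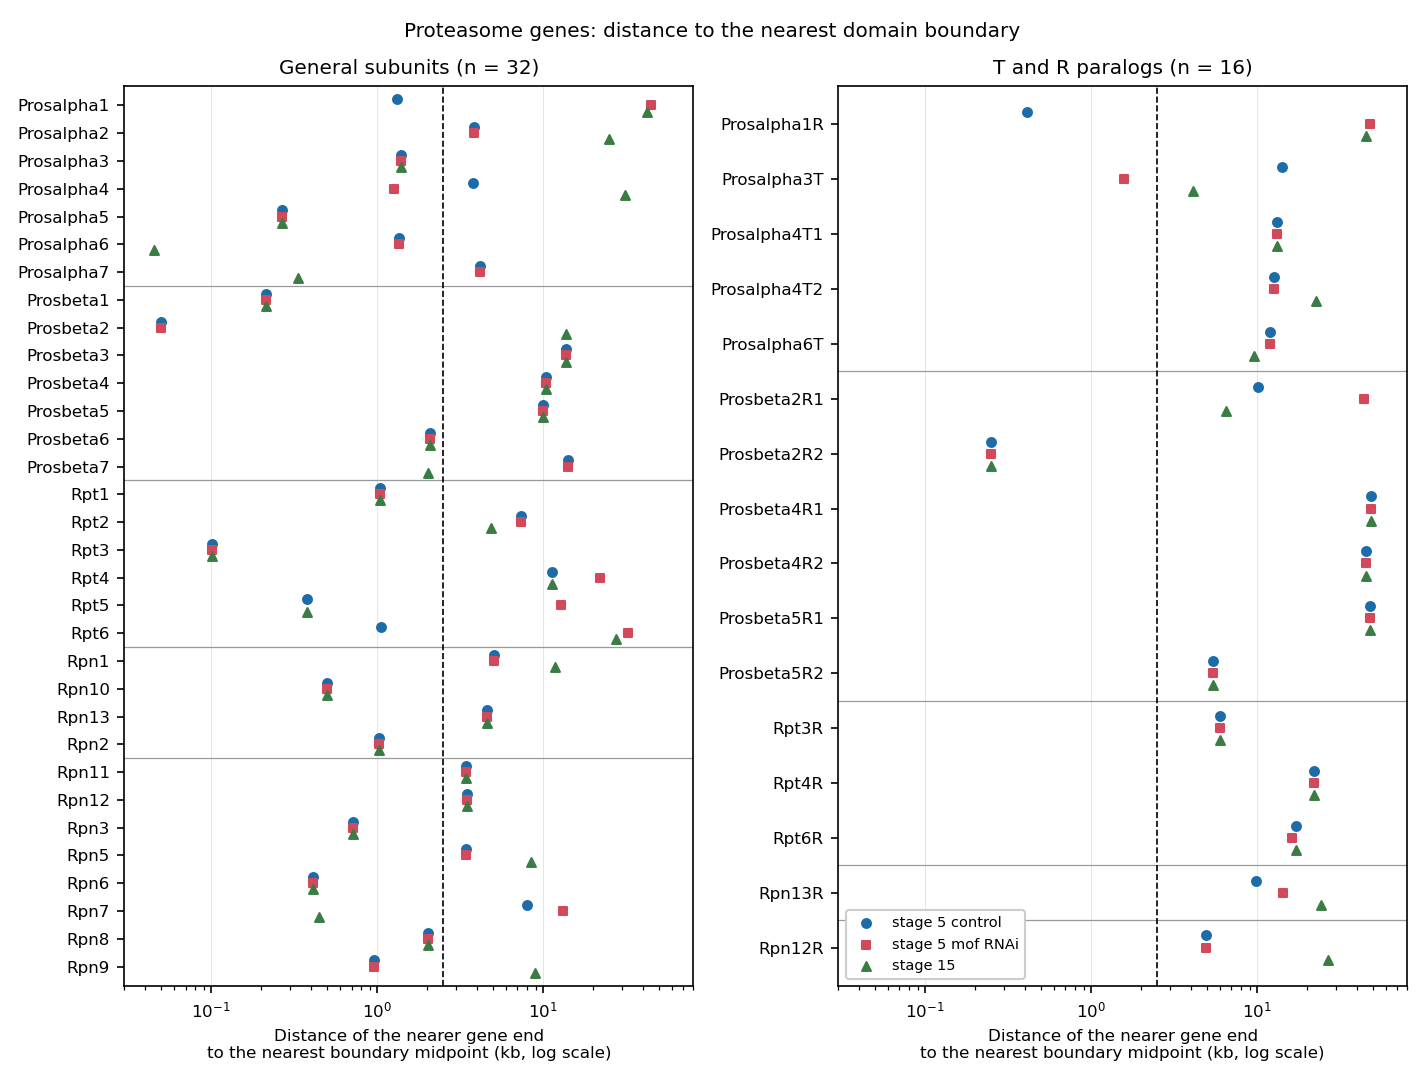
Distance in kb, on a log scale, from the nearer gene end to the nearest boundary midpoint for each of the 32 general subunit genes and 16 T and R paralogs, with a circle for stage 5 control, a square for stage 5 mof RNAi and a triangle for stage 15; grey lines separate alpha ring, beta ring, base ATPases, base and linker, and lid, from top to bottom. The dashed line marks 2.5 kb: in stage 5 control 17 general subunits and 2 paralogs lie to its left.

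The 7 genes of the alpha ring, whose subunits form the outer gates of the core, gave 4 at a boundary in each list, but not the same 4. Prosalpha3 (2R 20994900 to 20996118) lay 1.38 kb from the same midpoint in all 3 lists. Prosalpha5 lay 0.267 kb from a shared midpoint in all 3. Prosalpha6 was 1.35 kb from its boundary in both stage 5 lists and 0.0455 kb from one in the adjoining bin at stage 15. The other 4 genes each differed between lists or stayed outside the window. Prosalpha2 was the alpha gene outside it throughout, at 3.82 kb in both stage 5 lists and 24.9 kb at stage 15.

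In the beta ring, which holds the cutting sites, 3 of 7 genes were at a boundary in each list. Prosbeta1, the subunit with caspase-like activity, lay 0.213 kb from the same midpoint in all 3 lists. Prosbeta2, the trypsin-like subunit, held a boundary inside the gene in both stage 5 lists, 0.0495 kb from its end, and was 13.7 kb from the nearest one at stage 15. Prosbeta5, the chymotrypsin-like subunit, was 9.98 kb from the same midpoint in all 3 lists. The 3 catalytic subunits therefore had different positions: always at a boundary, at one in the stage 5 lists, and never at one.

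The remaining beta genes are structural. Prosbeta6 kept its distance of 2.08 kb in all 3 lists. Prosbeta3 at 13.8 kb and Prosbeta4 at 10.4 kb were away from boundaries, each with the same nearest midpoint in all 3. Prosbeta7 was 14.1 kb away in both stage 5 lists and 2.01 kb from a boundary listed at stage 15.

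The 6 Rpt genes encode the ATPases that unfold the substrate. Of these, 4 were at a boundary in stage 5 control, 2 after mof RNAi and 3 at stage 15. Rpt3 (X 11125101 to 11126785) was 0.101 kb from the same midpoint in all 3 lists, and Rpt1 was 1.05 kb from one. Rpt2 lay 7.37 kb away in both stage 5 lists and 4.87 kb at stage 15. Rpt4 lay 11.3 kb away in stage 5 control and at stage 15, and 22.0 kb away after mof RNAi. Rpt5 and Rpt6 account for the lower count after mof RNAi and are described with the members that differ between lists.

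The base and linker subunits gave 2 of 4 in each list. Rpn10, a receptor for ubiquitin chains, held a boundary inside the gene, 0.5 kb from an end, in all 3 lists. Rpn2, a large scaffold subunit, was 1.02 kb from the same midpoint in all 3. The other scaffold subunit, Rpn1, lay 5.05 kb away in both stage 5 lists and 11.8 kb at stage 15. Rpn13, also a ubiquitin receptor, was 4.60 kb away throughout.

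The lid genes gave 4 of 8 in each list. Rpn3, Rpn6 and Rpn8 held a boundary inside the gene at the same midpoint in all 3 lists, at 0.711, 0.409 and 2.03 kb from the nearer end. Rpn11, the deubiquitinase of the lid, lay 3.40 kb away in all 3 lists, and Rpn12 lay 3.48 kb away. Rpn5 was 3.43 kb away in both stage 5 lists and 8.43 kb at stage 15. Rpn7 and Rpn9 differed between lists.

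In stage 5 control the 5 general subunits nearest to a boundary were Prosbeta2, Rpt3, Prosbeta1, Prosalpha5 and Rpt5, at 0.0495 to 0.376 kb. They come from both rings of the core and from the base. The 5 farthest were Prosbeta7 at 14.1 kb, Prosbeta3 at 13.8 kb, Rpt4 at 11.3 kb, Prosbeta4 at 10.4 kb and Prosbeta5 at 9.98 kb. Of these 5 farthest genes, 4 belong to the beta ring. No general subunit was more than 20 kb from a stage 5 control boundary, while 4 of 16 paralogs (25%) were, beside 16.8% of all genes. After mof RNAi 3 general subunits and 6 paralogs were, beside 2748 of all 13842 genes. At stage 15 the counts were 4 and 8, beside 2024 of all genes.

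Across the 3 lists, 12 of 32 general subunits (37.5%) were at a boundary in all, beside 21.0% of all protein-coding genes. They were Prosalpha3, Prosalpha5, Prosalpha6, Prosbeta1, Prosbeta6, Rpt1, Rpt3, Rpn2, Rpn3, Rpn6, Rpn8 and Rpn10. At the other end 11 (34.4%) were at a boundary in no list, beside 55.9% of all genes. Of these 11, Rpt4, Rpn1, Prosbeta3, Prosbeta4 and Prosbeta5 lay beyond 5 kb in all 3 lists. The nearest midpoint was the same in all 3 lists for 17 of 32 general subunits (53.1%) and 8 of 16 paralogs (50%), beside 37.4% of all genes. The paralogs thus had a shared nearest midpoint about as often as the general subunits, although it lay farther away.

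**Figure D2:**
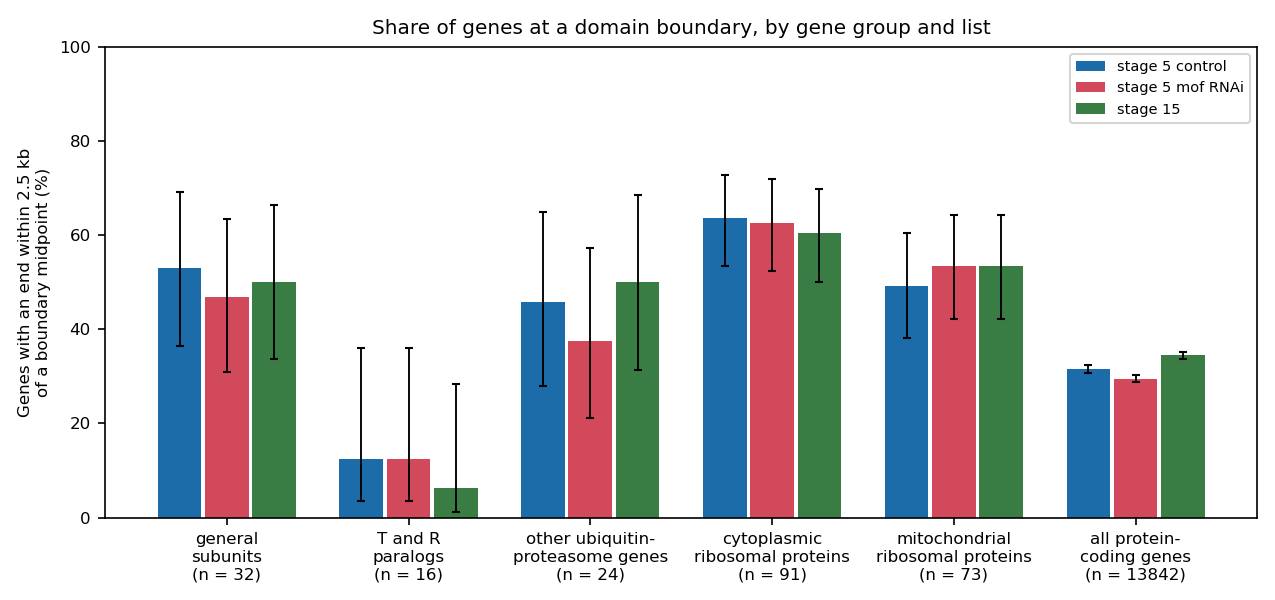
Share of genes in percent with an end within 2.5 kb of a boundary midpoint, for 6 gene groups and the 3 lists, with bars for the share and lines for its 95% Wilson interval (counting error only). General subunits stand at 53.1%, 46.9% and 50%, T and R paralogs at 12.5%, 12.5% and 6.25%, and all 13842 protein-coding genes at 31.5%, 29.5% and 34.5%.

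Between stage 5 control and stage 5 mof RNAi most general subunits kept their status. Of the 17 at a control boundary, 14 (82.4%, Wilson interval 59.0% to 93.8%) were also at one after mof RNAi, beside 83.9% of all genes at a control boundary. Of the 15 at a boundary after mof RNAi, 14 were at one in control (93.3%), beside 89.6% of all such genes. Both shares were near those of all genes. Prosalpha1, Rpt5 and Rpt6 had a boundary in control but lacked one after mof RNAi, and Prosalpha4 was the reverse.

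Rpt6 (X 21316052 to 21317663) lay 1.05 kb from a control boundary, and the nearest midpoint was 32.3 kb away after mof RNAi and 27.3 kb away at stage 15. Its boundary, at X 21313751 to 21316250, was the one control boundary at a general subunit with no other gene end within 2.5 kb. The domain around Rpt6 measured 35 kb in control, 152.5 kb after mof RNAi and 62.5 kb at stage 15. Both other lists thus placed the gene inside a longer domain.

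Rpt5 (3R 23752876 to 23754623) lay 0.376 kb from the same midpoint in stage 5 control and at stage 15, and 12.9 kb from the nearest one after mof RNAi. The boundary, at 3R 23751251 to 23753750, was also 0.334 kb from an end of RanBP3. Rpt5 was the general subunit at a boundary in control and at stage 15 but not after mof RNAi. No other general subunit had that order.

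Prosalpha4 (X 16276270 to 16277587) lay 3.77 kb from its nearest midpoint in control and 1.27 kb after mof RNAi. The boundary was listed in the adjoining bin, 2.5 kb nearer, so the status turned on a shift of 1 bin. At stage 15 the nearest midpoint was 31.3 kb away.

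Prosalpha1 and its paralog Prosalpha1R lie 1.74 kb apart on 2R and shared 1 boundary in stage 5 control, at 2R 7827501 to 7832500. Prosalpha1 was 1.32 kb and Prosalpha1R 0.412 kb from its midpoint. After mof RNAi the nearest midpoints were 44.8 and 47.9 kb away, and at stage 15 they were 42.3 and 45.4 kb away. The control boundary was 5 kb wide, wider than 1 bin, and its score stood at the 74.4th percentile of its list, counted from the most negative. By the numbers in the boundary names, 2 and 4 bins had been left out of the control map in the stretches on its sides, and 7 had been left out of the mof RNAi map in the stretch holding both genes. The part of the left-out bins in this difference was not tested.

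Members on X and on the autosomes were set side by side after their values had been seen. The nearest midpoint was the same in both stage 5 lists for 26 of 32 general subunits (81.2%) and 11 of 16 paralogs (68.8%), beside 68.9% of all genes. Among the 6 members on X this held for Rpt3 alone, beside 62.1% of all genes on X. Among the 42 members on autosomes it held for 36 (85.7%), beside 70.2% of all autosomal genes. With midpoints matched within 2.5 kb, the count on X was 2 of 6, Prosalpha4 being the second, beside 71.2% of all genes on X. On autosomes it was 36 of 42, beside 77.9% of all autosomal genes. The other 4 members on X were Rpt4, Rpt6, Rpn13R and Prosbeta2R1, and 6 genes are too few to set X apart from the autosomes.

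Prosbeta2R1 on X was 10.2 kb from a midpoint in control, 43.95 kb after mof RNAi and 6.45 kb at stage 15. Rpn13R, also on X, was 9.83 kb away in control, 14.4 kb after mof RNAi and 24.4 kb at stage 15. Their control boundaries were 3.125 kb wide, and the stretch around Rpn13R had left-out bins in both stage 5 maps. Of the 4 general subunits on X, 2 were at a boundary in control, 2 after mof RNAi and 1 at stage 15.

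From stage 5 control to stage 15, 13 of the 17 general subunits at a control boundary (76.5%, Wilson interval 52.7% to 90.4%) were at one again, beside 75.5% of all genes. Of the 16 at a stage 15 boundary, 13 were at one in control (81.2%), beside 69.0%. The first share was near that of all genes, and the interval of the second, 57.0% to 93.4%, included it. Prosalpha1, Rpt6, Prosbeta2 and Rpn9 were at a boundary in control and not at stage 15. Prosalpha7, Prosbeta7 and Rpn7 were at a boundary at stage 15 and not in control. The lists also differed in make-up. Each stage 5 list held 140 boundaries wider than 1 bin, and the stage 15 list 0. The domain held left-out bins for 34.7% of all genes in stage 5 control, 36.4% after mof RNAi and 0% at stage 15. The part of this in the differences between stage 5 and stage 15 was not tested.

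Rpn9 (3R 23731375 to 23733462), a lid subunit, held a boundary inside the gene in both stage 5 lists, 0.962 kb from an end, and was 8.87 kb from one at stage 15. Prosbeta2 (3L 14999951 to 15001319) had the same order, at 0.0495 kb in both stage 5 lists and 13.7 kb at stage 15. These genes were alike in both stage 5 lists and differed at stage 15. Prosbeta2 lay in a stretch with 1 left-out bin in both stage 5 maps.

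Rpn7 (3R 22460662 to 22462054) was 7.95 kb from a midpoint in control, 13.2 kb after mof RNAi and 0.447 kb at stage 15. Prosalpha7 (2R 9846636 to 9847836) was 4.14 kb away in both stage 5 lists, and at stage 15 a boundary lay inside it, 0.336 kb from an end. Prosbeta7 (3R 5357012 to 5358364) was 14.1 kb away in both stage 5 lists and 2.01 kb away at stage 15. None of these 3 genes was at a boundary in either stage 5 list. Prosbeta7 lay in a stretch with 2 left-out bins in both stage 5 maps.

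**Figure D3:**
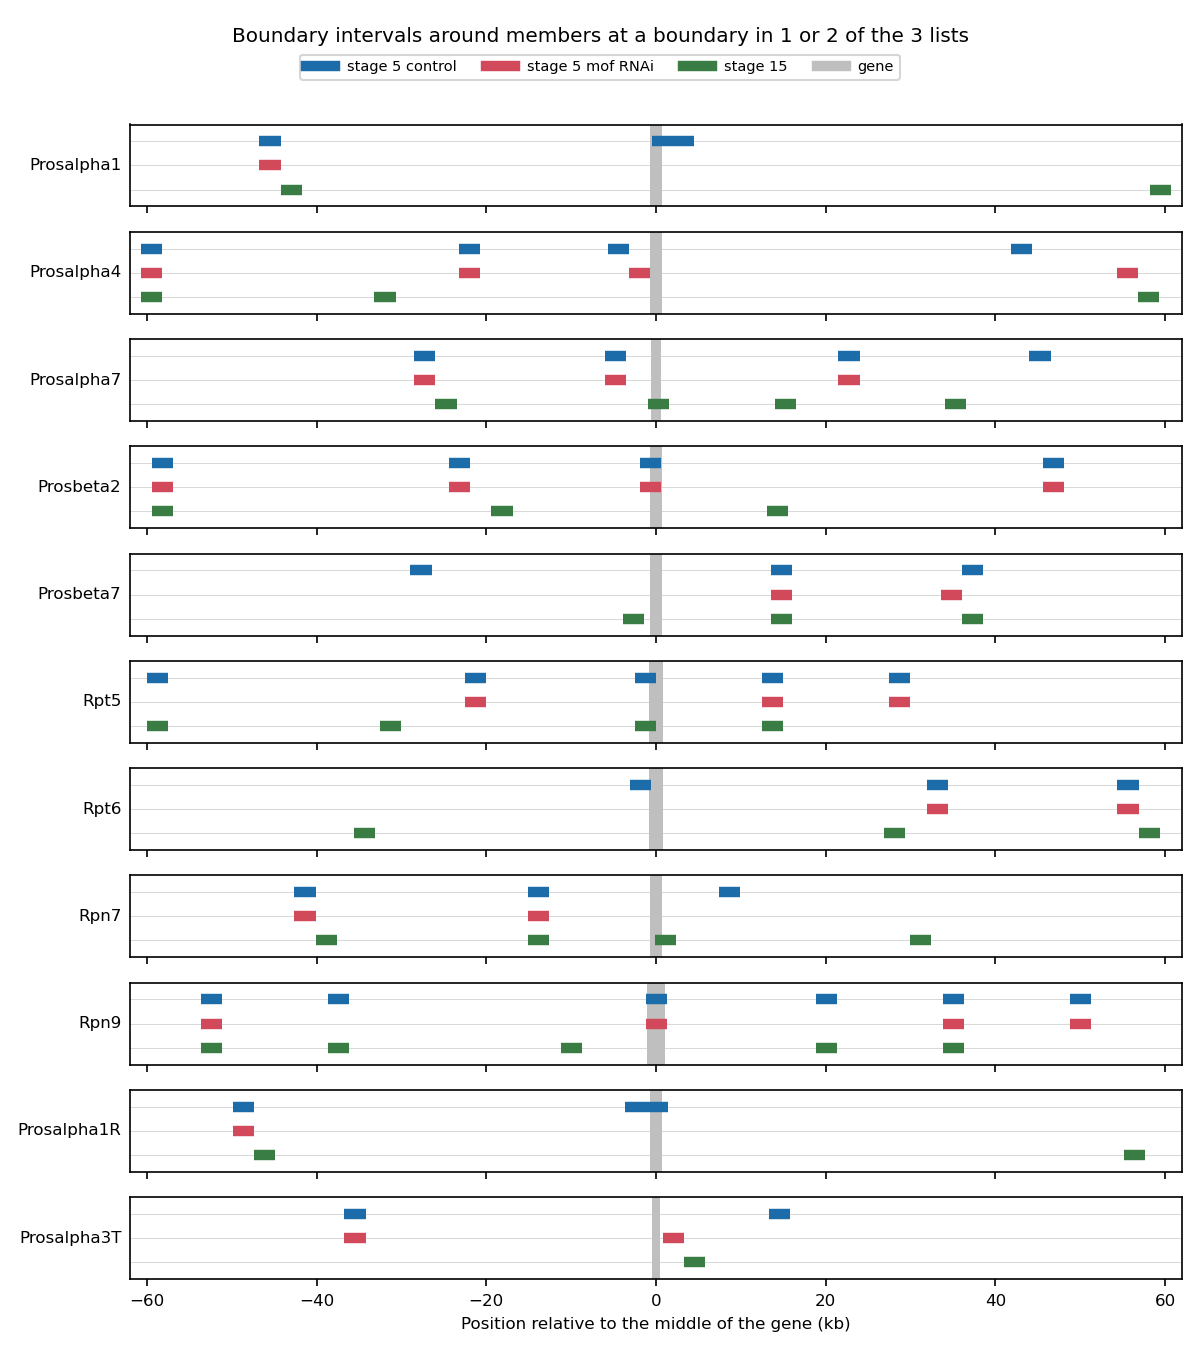
Boundary intervals within 60 kb of the 11 members that were at a boundary in 1 or 2 of the 3 lists, with position in kb relative to the middle of the gene, 1 row of bars per list and the gene as a grey band. Rpt6 shows a bar next to the gene in stage 5 control only, Rpn7 at stage 15 only, and Rpt5 in stage 5 control and at stage 15.

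Among the 16 paralogs, Prosbeta2R2 alone was at a boundary in all 3 lists, 0.251 kb from the same midpoint. Prosalpha1R was at the shared control boundary only. Prosalpha3T on 3R was 14.1 kb away in control, 1.59 kb after mof RNAi and 4.09 kb at stage 15. The mof RNAi and stage 15 boundaries lay in adjoining bins, so its status between these lists turned on a shift of 1 bin. The score of the mof RNAi boundary stood at the 94.8th percentile of its list, counted from the most negative. The other 13 paralogs (81.2%) were at a boundary in no list, beside 55.9% of all genes. Beyond 5 kb in all 3 lists lay 12 of the 16 (75%), beside 40.1% of all genes.

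The alpha paralogs with a T are known from the testis, and Prosalpha6T is known to be needed in sperm development. Prosalpha6T was 11.9 kb away in both stage 5 lists and 9.54 kb at stage 15. Prosalpha4T1 was 13.2 kb from the same midpoint in all 3 lists. Prosalpha4T2 was 12.7 kb away in both stage 5 lists and 22.7 kb at stage 15.

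The beta paralogs included the members farthest from boundaries. Prosbeta4R1 and Prosbeta4R2 are neighbours 1.47 kb apart on 2L, with the same nearest midpoint at 48.6 and 45.4 kb in all 3 lists. Prosbeta5R1 was 47.7 kb away in all 3. Prosbeta5R2 was nearer, at 5.42 kb in all 3. The neighbours Prosbeta4R1 and Prosbeta4R2 share a domain and do not count as independent.

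Among the other Rpt and Rpn paralogs, Rpt3R was 5.99 kb and Rpt4R 21.9 kb from the same midpoint in all 3 lists. Rpt6R was 17.2 kb away in control and at stage 15, and 16.3 kb after mof RNAi. Rpn12R, a lid paralog, was 4.93 kb away in both stage 5 lists and 26.6 kb at stage 15.

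Each paralog was also set beside its own general subunit. The paralog was the farther of the pair in 14 of 16 pairs in stage 5 control, in 13 after mof RNAi and in 10 at stage 15. Counting only pairs that differ by more than 2.5 kb, the paralog was farther in 12, 10 and 10 pairs and the general subunit in 1, 2 and 6. By that count it was farther in all 3 lists in 6 pairs, with Rpt3 at 0.101 kb and Rpt3R at 5.99 kb as an example. In 1 pair the general subunit was farther by more than 2.5 kb in all 3, with Prosbeta5 at 9.98 kb and Prosbeta5R2 at 5.42 kb. Pairs share general subunits, since Prosalpha4, Prosbeta2, Prosbeta4 and Prosbeta5 each have 2 paralogs, so the pairs are not independent.

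**Figure D4:**
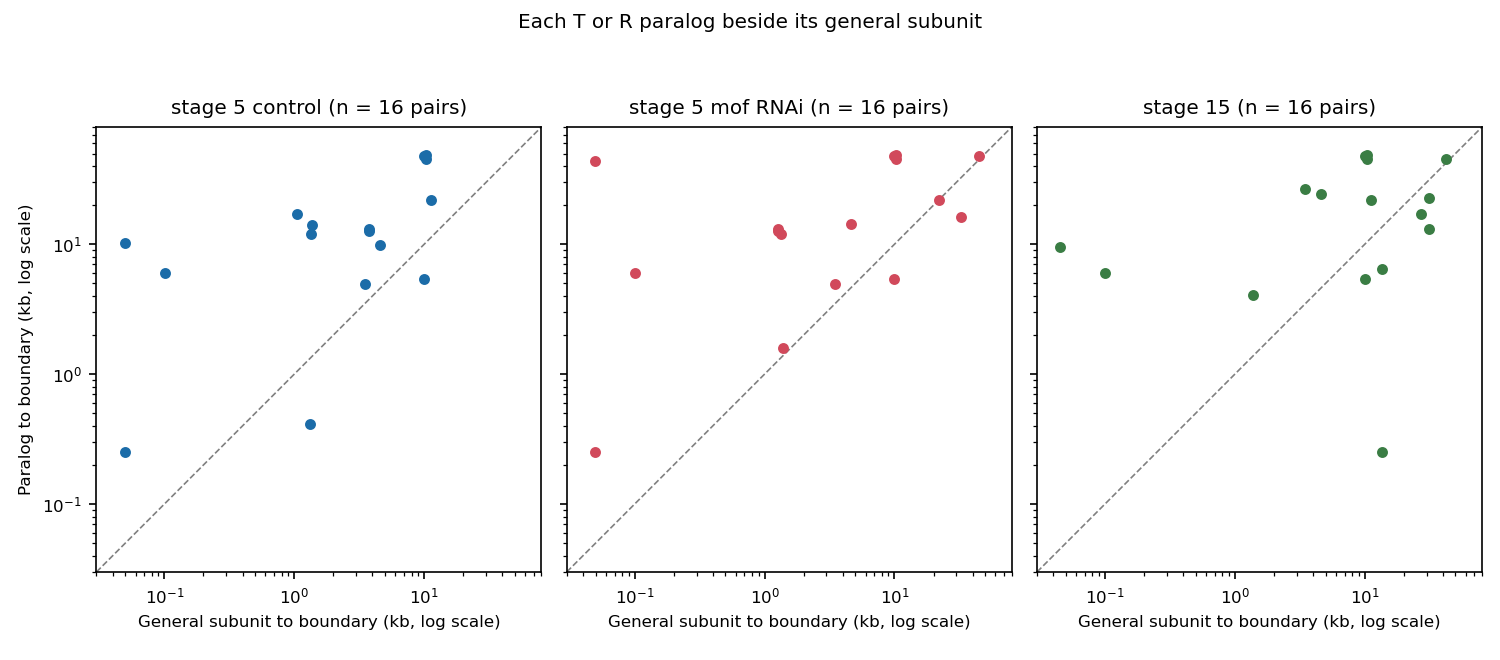
Distance in kb of each T or R paralog (vertical, log scale) against that of its general subunit (horizontal, log scale) to the nearest boundary midpoint, 16 pairs in each list; the dashed line marks equal distances. Points above the line, where the paralog is farther, number 14 in stage 5 control, 13 in stage 5 mof RNAi and 10 at stage 15, and 12, 10 and 10 of them differ by more than 2.5 kb.

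The surroundings of the genes differed too. All 32 general subunits had another protein-coding gene within 0.5 kb or overlapping, beside 10 of 16 paralogs (62.5%) and 80.6% of all protein-coding genes. The median number of other genes within 10 kb was 7 for general subunits, 6 for paralogs and 5 for all genes. Median gene length was 1.39 kb for general subunits, 1.28 kb for paralogs and 2.15 kb for all genes. Members of both groups were thus short genes, and the general subunits lay in close company. This company was not particular to them. A neighbour within 0.5 kb was found for 98.6% of mitochondrial ribosomal protein genes and 91.7% of other ubiquitin-proteasome genes. For cytoplasmic ribosomal protein genes it was 79.1%.

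The share at a boundary was also taken in classes of gene density among all genes. That share in stage 5 control was 30.9% for genes with 0 to 4 others within 10 kb, 36.2% with 5, 34.0% with 6 to 7 and 27.3% with 8 to 26. Of the general subunits, 4 of 5, 2 of 2, 5 of 11 and 6 of 14 in these classes were at a control boundary. Of the paralogs, 0 of 6, 0 of 1, 1 of 6 and 1 of 3 were. The share of general subunits was above that of all genes in each class, but the classes hold few members. The part of gene density, or of a neighbour within 0.5 kb, in the difference between general subunits and paralogs was not tested.

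Boundaries at general subunits were shared with other genes about as often as those at any gene. At 16 of the 17 in stage 5 control another protein-coding gene also had an end within 2.5 kb, beside 88.8% of all genes at a control boundary, and the median number of such genes was 2 for both. After mof RNAi this held for 15 of 15, beside 89.0%, and at stage 15 for 16 of 16, beside 90.3%. The member was the nearest gene in 6 of the 17, beside 45.5% of all genes at a control boundary. The midpoint lay inside the member in 6 cases and outside it in 11, beside 29.8% inside among all such genes. At Rpn6 an end of ave lay 0.0205 kb from the midpoint, and at Prosbeta1 an end of Rrp42 lay 0.0925 kb from it, nearer than the member itself.

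Domains around general subunits were short and those around paralogs long. In stage 5 control the median domain measured 37.5 kb for general subunits, 56.6 kb for paralogs and 47.5 kb for all genes. After mof RNAi the medians were 37.5, 81.2 and 52.5 kb, and at stage 15 they were 30, 67.5 and 42.5 kb. In the same order of lists they were 37.5, 40 and 32.5 kb for mitochondrial ribosomal protein genes. For cytoplasmic ribosomal protein genes they were 40, 43.75 and 35 kb. A gene in a short domain is nearer to a boundary by construction, so domain length is not separate from the distances.

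The scores of the boundaries are the authors' own, on a scale that is not stated, and were used only as percentiles within a list, with 0 the most negative. For boundaries at general subunits the median percentile was 34.3 in stage 5 control, 29.5 after mof RNAi and 48.3 at stage 15. For boundaries at all protein-coding genes it was 37.6, 38.0 and 40.9. Rpn2, at the 4.98th percentile of the control list, had the most negative score among the general subunits at a control boundary, and Rpt1, at the 75.7th, the least. The boundaries at general subunits thus covered a wide range of scores.

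Few members lay near each other. Beside the Prosalpha1 and Prosbeta4R neighbours, 3 pairs lay within 50 kb. Rpn9 and Rpt5 were 19.4 kb apart on 3R, with 2 boundaries between them in stage 5 control and 1 in each of the other lists. Rpn12 and Prosbeta6 were 25.4 kb apart on 3L with 1 boundary between them in all 3 lists. Prosbeta2 and Rpn12R were 40.3 kb apart on 3L with none between them at stage 5 and 1 at stage 15.

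Other genes of the ubiquitin-proteasome pathway, 24 on these arms, gave 11 at a boundary in stage 5 control (45.8%, 27.9% to 64.9%), 9 in stage 5 mof RNAi (37.5%, 21.2% to 57.3%), and in the stage 15 list 12 (50%, 31.4% to 68.6%). These intervals included the shares of all genes, 31.5%, 29.5% and 34.5%. Of the 11 at a control boundary, 3 (Pomp, alien and Ubi-p63E) were not at one after mof RNAi. Of the 9 at a boundary after mof RNAi, 1 (CSN7) was not at one in control. Among all genes at a control boundary, 83.9% were also at one after mof RNAi. Of all genes at a boundary after mof RNAi, 89.6% were at one in control. PI31, a regulator of the proteasome, lay 0.115 kb from a boundary in all 3 lists, and TER94, the unfolding ATPase upstream of it, lay 0.842 kb from one. Pomp, the assembly chaperone of the core, was 0.156 kb from a boundary in control and at stage 15 and 8.40 kb from one after mof RNAi, the same order as Rpt5. The subunit alien of the COP9 signalosome, a complex related to the lid, showed that order too, at 0.122 kb, 0.122 kb and 8.82 kb. The polyubiquitin gene Ubi-p63E was 0.742 kb from a control boundary and 34.3 kb from one in both other lists. CSN7, also of the COP9 signalosome, was 13.9 kb away in control, 1.03 kb after mof RNAi and 26.0 kb at stage 15. Of the other genes of that complex, CSN3, CSN5 and CSN8 were at a boundary in all 3 lists, and CSN1b, CSN4 and CSN6 in none.

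Ribosomal protein genes served as other gene groups that every cell uses. Among 91 genes for cytoplasmic ribosomal proteins, 58 were at a boundary in stage 5 control (63.7%), 57 after mof RNAi (62.6%) and 55 at stage 15 (60.4%). Among 73 genes for mitochondrial ribosomal proteins, the counts were 36 (49.3%), 39 (53.4%) and 39 (53.4%). The Wilson intervals of the general proteasome subunits overlapped those of both ribosomal groups in all 3 lists. Such overlap neither sets the groups apart nor shows that they are alike. The cytoplasmic ribosomal share was above that of the general subunits (53.1%, 46.9% and 50%) in each list. Median distances of cytoplasmic ribosomal genes were 0.96, 0.92 and 1.07 kb, beside 2.05, 3.42 and 2.74 kb for general subunits. Those of mitochondrial ribosomal genes were 3.29, 2.14 and 2.28 kb, farther than general subunits in stage 5 control and nearer in the other lists.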

How the data were processed

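The authors deposited lists of domain boundaries on the dm6 assembly, per the submitters' processing notes, with 1 score per boundary. These scores are the authors' own deposited values. Not given in the sources used here are their scale, the aligner and the boundary caller. A list is assumed to pool the libraries of its group. The other 57 of the 70 samples were not analysed here.

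Genes came from a RefSeq table of the matching assembly, which has no strand, so gene ends were used in place of start sites. Of 25 listed ubiquitin-proteasome genes, 24 lay on the arms and 2 were matched by a synonym. Distances were computed with Python 3.11.15, numpy 2.4.6 and pandas 2.3.3 and the code was tested on simulated data. Shares have 95% Wilson intervals. No test was run, because each condition has 1 list.

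Every member could be named, with full values for the 5 nearest and 5 farthest general subunits, members that differ between lists, and the paralogs. Other genes are named where they share a member's boundary or are in the ubiquitin-proteasome list. The members and lists were chosen with earlier results of these data known.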

Additional observations from a re-analysis of the deposited data

How the results depend on the processing

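Of 90 alternative values, 67 stayed within their interval (counts, within 1.5 times) and 23 moved by more. The next counts include the main setting. General subunits had the higher share in 27 of 27 comparisons with paralogs and the shorter median distance in 18 of 18. Their share was above that of all genes in 27 of 27, with the lower end of its interval above it in 13. The settings reuse the same genes and lists, so these comparisons are not independent. With a window of 1 kb the general subunits' shares were 28.1%, 25% and 31.2% in stage 5 control, mof RNAi and stage 15. The shares of all genes were 18.5%, 17.2% and 21.0%. All 3 lists shared 6 of 32 general subunits (18.8%), beside 11.2% of all genes. Of the 9 in control, the mof RNAi list retained 8 (88.9%), beside 81.3% among all genes. The stage 15 list retained 7 of these 9 (77.8%), beside 70.8%. With 5 kb the stage 5 shares were 75% and 65.6%, beside 45.1% and 42.5%. With 10 kb the shares were 87.5%, 75% and 71.9%, beside 63.6%, 60.5% and 67.2% of all genes. The paralogs' share was then 37.5% in control and at stage 15. All 3 lists shared 20 of 32 general subunits (62.5%), beside 49.4% of all genes. Of the 28 in control, the mof RNAi list retained 24 (85.7%), beside 88.3% among all genes. The stage 15 list retained 22 of these 28 (78.6%), beside 85.5%. Both retained shares were thus below those of all genes. Next, only the 50% of boundaries whose scores were most negative in each list were used. The stage 15 share of general subunits was then 25%, beside 21.3% of all genes, and their median 11.5 kb. All 3 lists shared 6 of 32 general subunits (18.8%), beside 12.0% of all genes. Of the 13 in control, the stage 15 list retained 6 (46.2%), beside 67.1% among all genes. In the main setting that share was 76.5%, beside 75.5%, so its nearness to all genes did not hold here. The paralogs' medians were then 35.9 kb in control and 47.3 kb after mof RNAi. Measured from the boundary's interval, the control median of general subunits was 0.805 kb. Without members in stretches with left-out bins the general subunits' shares were 48%, 44% (interval 26.7% to 62.9%) and 48%, beside 35.8%, 34.1% and 37.6% of all genes, and in no list did the interval lie above the share of all genes. Distance from the gene body, and leaving out Prosalpha1 with Prosalpha1R (chosen after seeing the data), moved no value beyond its interval. Narrower windows and shorter lists contain fewer genes by construction, and the cause of other moves was not tested.

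Distances from start sites and counts of promoter motifs or protein identity were not run, because no strand or sequence was used here. No paired analysis was possible because each condition has 1 pooled list, which also leaves no library to leave out. Depth is unknown, and distances are limited by the 2.5 kb bins.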
